A study of Mus musculus with 6 samples.

Results

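The contractile unit of skeletal muscle, the sarcomere, was followed in condylar cartilage through 47 genes chosen by symbol, out of 24346 genes listed for each library. The 47 comprise 14 isoforms of adult fast fibres, 10 slow isoforms, 5 developmental isoforms, 3 tropomyosin genes, 13 components that fast and slow fibres share and 2 ubiquitin ligases of muscle. The libraries came from the cartilage of the mandibular condyle, the jaw's side of the temporomandibular joint, of control mice labelled fl/fl and of mutant mice, with 3 libraries in each group. According to the series title, the mutants lack Ihh, the gene of the signalling protein Indian hedgehog, in craniofacial neural crest cells. The labels give no age, sex, Cre driver or count of animals per library, so p-values measure the spread between these libraries, which may be technical in part.

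In a sarcomere, thick filaments of myosin pull on thin filaments of actin, which are anchored at the Z-disc, while titin spans from Z-disc to M-band. Most of these proteins come in fast, slow and developmental forms encoded by separate genes, and muscles that mature after birth replace embryonic and perinatal forms with adult ones. Jaw muscles insert on and around the condyle, and their fibres arise from head mesoderm rather than from neural crest. Of the genes followed here, several of the slow forms are also used by the heart, and the tropomyosin genes are used by many cells outside muscle.

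Levels are FPKM, fragments per kilobase of transcript, scaled to the library's total. The spacing of low values corresponded to totals of about 1.31 to 1.75 (in units of 1e6 fragments) per library, which is shallow, and 43 of the 47 genes reached 1 FPKM in all 6 libraries. Differences were tested with limma on log2(FPKM + 1) over 18715 genes, and a gene is said to have risen or fallen where its Benjamini-Hochberg adjusted p was below 0.05. Xist, the transcript that silences an X chromosome, stood at 29.5 and 29.2 FPKM in controls 1 and 2 but at 0.577 to 0.984 FPKM in control 3 and the mutants, and the Y-linked Eif2s3y at 42.1 FPKM in control 3, 38.4 to 47.4 FPKM in the mutants and at most 0.89 FPKM in the other controls. In these sex-linked genes only control 3 was like the mutants. A list of 15 cartilage genes, of which 13 had values, summed to 416 to 552 FPKM in the controls against 217 to 267 FPKM in the mutants, and the cartilage collagen gene Col2a1 was present in every library at 32.3 to 159 FPKM. In bulk RNA of this kind, a change in the number of muscle cells and a change in their RNA per cell cannot be told apart.

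Most of the sarcomere genes followed here had higher values in mutant cartilage. Of the 47 genes, all of which passed the filter on low values, 14 rose and 0 fell, where 1.24% of all genes tested were called, 0.775% upward and 0.465% downward. At an unadjusted p below 0.05, 34 were higher and 4 lower, where 7.94% and 6.11% of all genes were. The median log2 fold change of the 47 was 1.41, beside 0.000848 for all genes tested. In 33 of the 47 every mutant library lay above every control, as did 9.77% of all genes tested, and in 3 every mutant lay below, as did 9.4%.

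Summed over the 47 genes, FPKM was 9815 in control 1, 5934 in control 2 and 13921 in control 3, against 34116, 38021 and 21713 in mutants 1, 2 and 3. These sums made up 1.69%, 0.995% and 2.18% of all FPKM in the controls and 5.24%, 5.15% and 3.42% in the mutants. Control 2 had the lowest sum and was the lowest library for 32 of the 47 genes, and mutant 3 was the lowest mutant for 36. Mutant 2 was the highest library for 27 genes and mutant 1 for 13, whereas a control was highest for 6. The sums did not overlap, but the lowest mutant exceeded the highest control by less than the mutants differed among themselves.

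**Figure D1:**
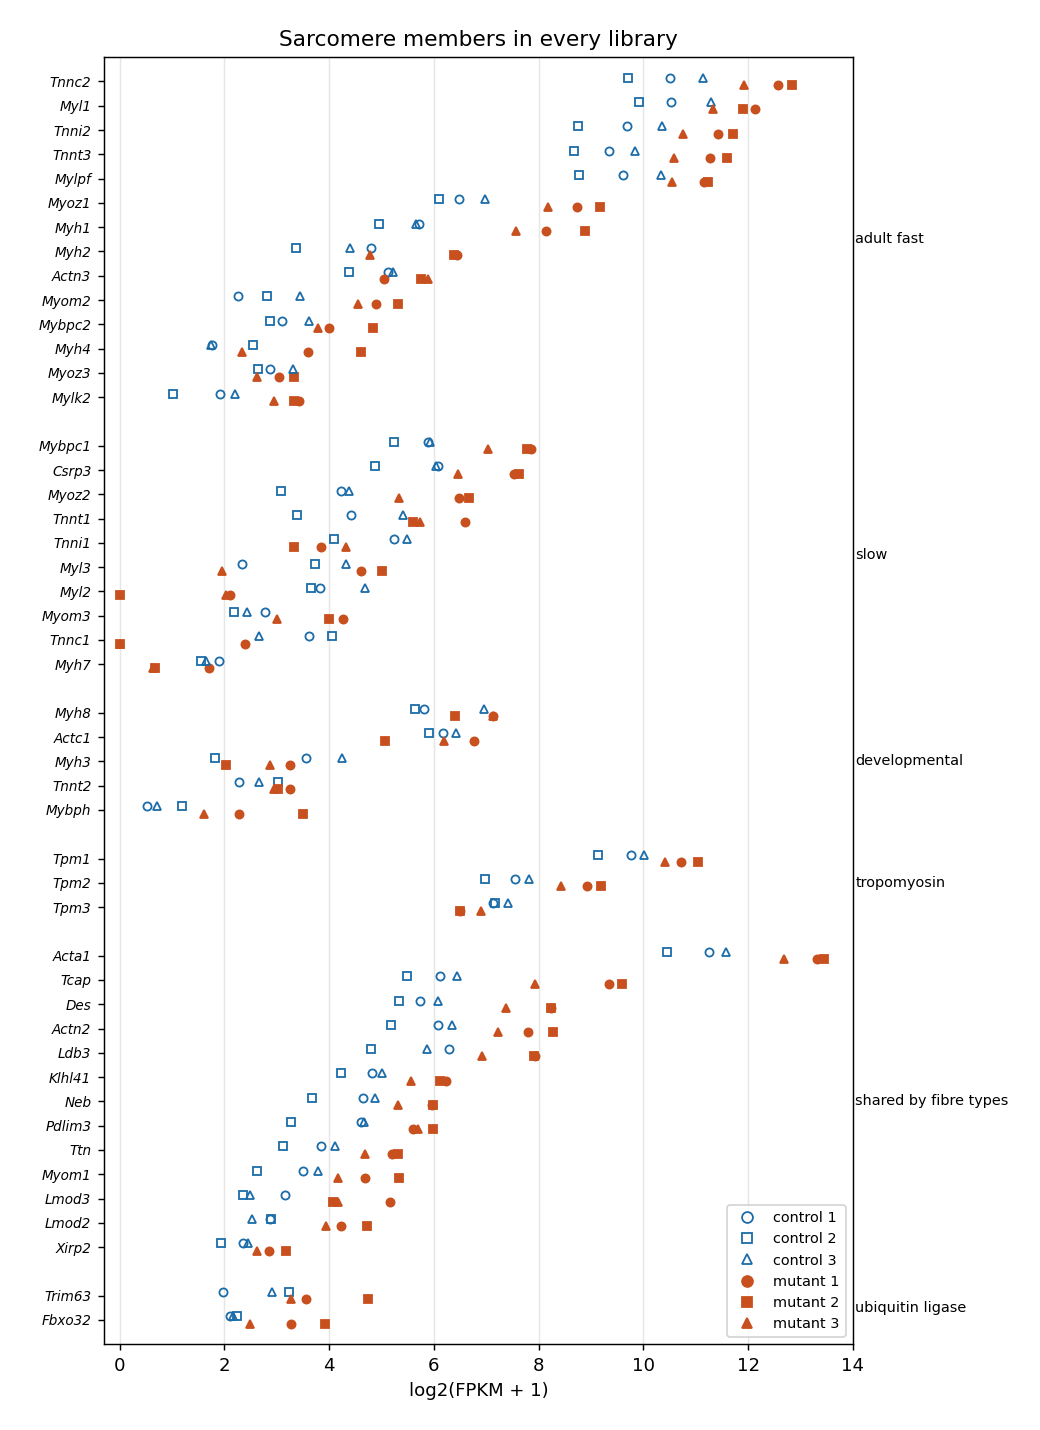
Level of each of the 47 genes in every library, as log2(FPKM + 1) on the horizontal axis, with open blue symbols for the 3 controls and filled orange symbols for the 3 mutants, grouped by isoform class. All shared and most adult fast genes lie to the right in mutants, while Myl2, Tnnc1 and Tpm3 lie to the left.

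By class, 5 of 14 adult fast isoforms rose, 2 of 10 slow isoforms, 0 of 5 developmental isoforms, 1 of 3 tropomyosins, 6 of 13 shared components and 0 of 2 ubiquitin ligases. None of the classes held a gene that fell. The median log2 fold change was 1.60 for the fast, 1.58 for the shared, 0.84 for the slow and 0.42 for the developmental class. All 14 fast and all 13 shared genes had a positive log2 fold change, against 6 of 10 slow and 3 of 5 developmental genes. Over all genes tested 50.1% had a positive one and 0.775% rose. At an unadjusted p below 0.05, 7.94% were higher and 6.11% lower (limma). The 4 genes that were lower at an unadjusted p below 0.05 were the slow isoforms Myl2, Tnnc1 and Tnni1 and the tropomyosin gene Tpm3. The developmental class had 1 gene higher and 0 lower at that p.

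**Figure D2:**
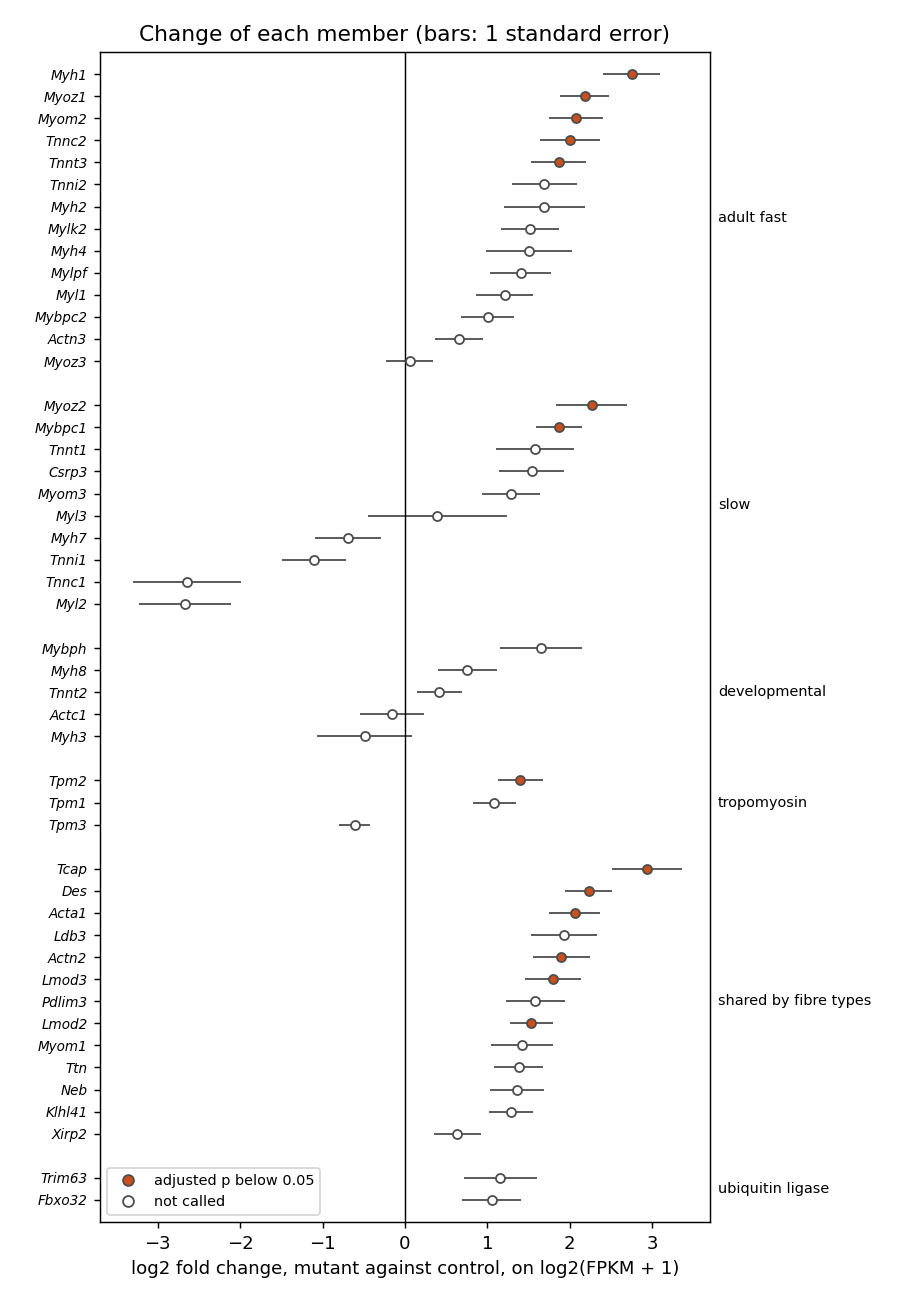
Log2 fold change of each gene, mutant against control, on the scale of log2(FPKM + 1), with 1 standard error (limma, 3 libraries per group). Filled points are the 14 genes with an adjusted p below 0.05, from 1.40 for Tpm2 to 2.94 for Tcap, and the open points furthest to the left are Myl2 and Tnnc1.

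Myosin heavy chains are the motors of the thick filament. Myh1, the adult fast type IIx heavy chain, measured 51.8, 30.1 and 49.6 FPKM in controls 1, 2 and 3 against 282, 472 and 188 FPKM in mutants 1, 2 and 3. The groups did not overlap, and Myh1 rose 7.17-fold in mean level (log2 fold change 2.75 ± 0.34 SE, limma adjusted p = 0.0157). Myh2, the type IIa chain, measured 26.8, 9.30 and 20.0 FPKM in the controls against 86.2, 82.8 and 26.5 FPKM in the mutants, and mutant 3 lay within the control range. The type IIb chain Myh4, the fastest, was scarce at 2.39, 4.805 and 2.33 FPKM in the controls against 11.1, 23.5 and 4.08 FPKM in the mutants, and it too overlapped. Neither Myh2 (adjusted p = 0.148) nor Myh4 (adjusted p = 0.226) passed the limma test.

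Neither developmental chain passed the test. Myh8, the perinatal chain, measured 54.8, 49.2 and 123 FPKM in the controls against 140, 83.4 and 140 FPKM in the mutants, so that control 3 stood among the mutants (adjusted p = 0.397, limma). Myh3, the embryonic chain, measured 10.7, 2.54 and 18.0 FPKM in the controls against 8.55, 3.10 and 6.28 FPKM in the mutants (adjusted p = 0.803, limma), with overlap. Myh7, the slow chain that the heart also uses, was low at 2.74, 1.92 and 2.15 FPKM in the controls against 2.27, 0.594 and 0.564 FPKM in the mutants. Mutant 1 lay within the controls and mutants 2 and 3 below them. The Myh7 values corresponded to 23, 16 and 24 fragments in the controls against 19, 6 and 5 in mutants, a ratio of 0.487 after scaling with an exact 95% interval from 0.304 to 0.763 that covers counting error only.

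As a share of the summed FPKM of these 6 heavy chain genes, Myh1 made up 34.7%, 30.8% and 23.0% in the controls against 53.2%, 71.0% and 51.5% in the mutants. Myh8 made up 36.7%, 50.2% and 57.3% in the controls against 26.4%, 12.5% and 38.2% in the mutants. Perinatal Myh8 was thus the most abundant heavy chain in all 3 controls and adult Myh1 in all 3 mutants, although the Myh8 shares of control 1 and mutant 3 overlapped. The embryonic share, Myh3, was 7.17%, 2.60% and 8.35% in the controls against 0.466% to 1.72% in the mutants. Slow Myh7 held 1.83%, 1.96% and 0.996% in the controls against 0.0892% to 0.428% in the mutants, without overlap. Shares of Myh2 and Myh4 overlapped. Because shares of a sum depend on each other, a larger share of Myh1 lowers the others.

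**Figure D3:**
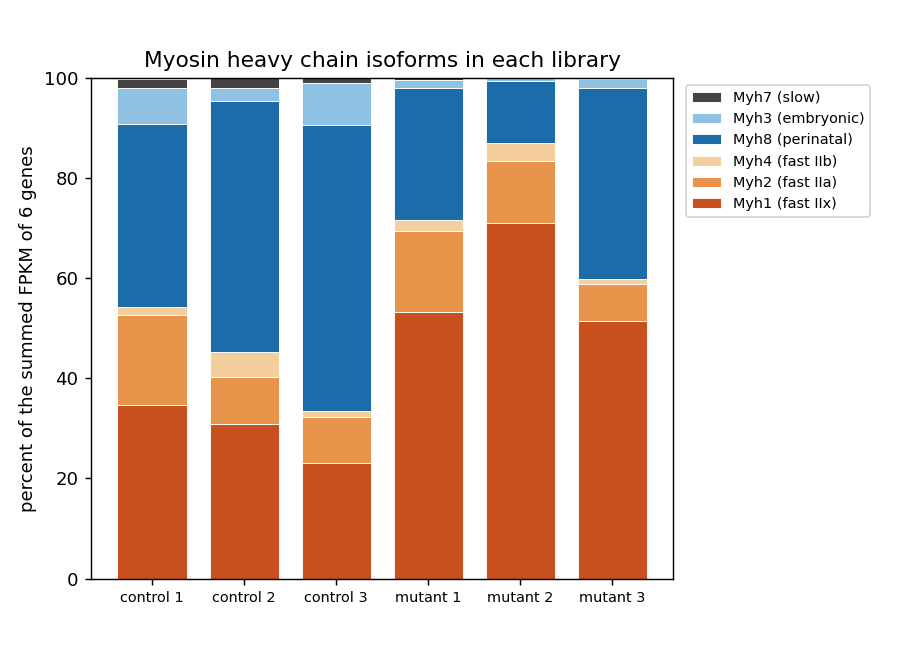
Share of each of 6 myosin heavy chain genes in their summed FPKM, in percent, for every library; each bar adds to the whole. Orange shades are adult fast chains, blue shades developmental chains and dark grey the slow chain, and the Myh1 share is 23.0% to 34.7% in the controls against 51.5% to 71.0% in the mutants.

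Of the 6 chains, 5 lie side by side on chromosome 11 on the plus strand of GRCm38 (mm10), in the order Myh3 (67078300 to 67102291), Myh2 (67171027 to 67197517), Myh1 (67200052 to 67224575), Myh4 (67238029 to 67260446) and Myh8 (67277124 to 67308634), while Myh7 lies on chromosome 14 (54970684 to 54994626, minus strand). In this cluster Myh1, which rose, lies between Myh2 and Myh4, which did not pass. The genes resemble each other in sequence. Of the stretches of 50 bases in each transcript, 26.7% of those of Myh1, 26.9% of Myh2, 18.9% of Myh4, 21.4% of Myh8, 4.81% of Myh3 and 22.2% of Myh7 also occur in transcripts of another gene. For Myh7 that gene is the heart chain Myh6, at 0.723 to 1.54 FPKM in all libraries. The labels do not say how reads shared by such copies were assigned, so levels of single chains are uncertain to that extent, and exons of Myh1, Myh2 and Myh7 overlap genes on the other strand, from which reads were not told apart.

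Myh1 and Myh8, the chains that led in mutants and in controls, are shown by bases before their RefSeq start (GRCm38.p6), at chr11:67199852-67200051 and chr11:67276874-67277123, both on the plus strand. Windows of 250 bases were searched, and bases that GENCODE annotates as untranslated region are not printed, which leaves 200 for Myh1. Capitals mark matches to the E-box CANNTG, the MEF2 site, the CArG box and the TATA box TATAAA, all sought on both strands except TATAAA, which was sought on the strand of the gene; in the sequences printed here no match overlaps another. E-boxes are bound by myogenic factors such as MyoD, MEF2 sites by MEF2 factors and CArG boxes by serum response factor.
Myh1: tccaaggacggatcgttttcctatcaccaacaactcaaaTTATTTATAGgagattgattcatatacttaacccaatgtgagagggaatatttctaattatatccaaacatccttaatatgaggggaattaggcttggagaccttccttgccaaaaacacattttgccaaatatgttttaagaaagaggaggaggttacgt
Myh8: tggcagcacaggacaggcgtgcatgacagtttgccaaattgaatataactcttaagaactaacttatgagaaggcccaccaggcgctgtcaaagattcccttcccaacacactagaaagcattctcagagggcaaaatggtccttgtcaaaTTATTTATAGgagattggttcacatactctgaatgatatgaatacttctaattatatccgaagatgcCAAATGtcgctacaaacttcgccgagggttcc
The window of each gene held 1 match to the MEF2 site with the same letters, starting 211 bases before the start in Myh1 and 99 bases before it in Myh8, inside a run of 22 letters common to both windows. Myh1 also held TATAAA, 32 bases before the start and past the printed stretch, and Myh8 an E-box. Promoters in the table matched 36 of the 47 genes, and 8 of these 36 (22.2%) held a MEF2 site, 6 (16.7%) a CArG box, 6 (16.7%) TATAAA and 32 (88.9%) an E-box. Among all 32851 promoters of the same length the shares were 2.92%, 1.47%, 7.59% and 66.2%.

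Each heavy chain carries an essential and a regulatory light chain at its neck. The fast essential chain Myl1 measured 1472, 966 and 2501 FPKM in the controls against 4492, 3840 and 2559 FPKM in the mutants, and the fast regulatory chain Mylpf 780, 434 and 1284 FPKM in the controls against 2272, 2400 and 1488 FPKM in the mutants. Both stood above all controls in every mutant, by a narrow margin in mutant 3, and neither passed the limma test (adjusted p = 0.142 and 0.112). Myl1 shares 32.1% of its stretches of 50 bases with the pseudogene Mylf-ps.

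Myl2, the slow regulatory light chain, had the opposite sign. It measured 13.1, 11.5 and 24.6 FPKM in the controls against 3.28, 0 and 3.11 FPKM in the mutants, with every mutant below every control (log2 fold change -2.67 ± 0.56 SE, limma adjusted p = 0.06). The values corresponded to 8, 7 and 20 fragments in the controls against 2, 0 and 2 in mutants, a scaled ratio of 0.117 with an exact 95% interval from 0.0301 to 0.327 for counting error only. The 0 of mutant 2 allows up to 4.09 FPKM, taking 3 fragments as the limit. The adjusted p of Myl2 ranged from 0.0354 to 0.355 over 17 other settings, in 4 of which it passed. As a share of both regulatory chains Myl2 was 1.65%, 2.59% and 1.88% in the controls against 0% to 0.208% in the mutants. Exons of Myl2 overlap Ccdc63 on the opposite strand, which measured 0.503 to 3.17 FPKM.

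Myl3, the slow essential light chain, varied within both groups, with 4.03, 12.2 and 18.9 FPKM in the controls against 23.2, 31.1 and 2.87 FPKM in the mutants. Mutant 3 was the lowest library and mutant 2 the highest. Its exons overlap those of Pth1r, the receptor for parathyroid hormone-related protein in cartilage and bone, which lies on the opposite strand and measured 106 to 128 FPKM in the controls against 49.8 to 113 FPKM in the mutants. Reads of Pth1r and Myl3 were not separated by strand, so the level of Myl3 is uncertain. The part of Pth1r in these values was not tested.

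Myosin-binding protein C links thick and thin filaments, and here its slow form was the more abundant. Mybpc1, the slow form, measured 58.3, 36.9 and 59.95 FPKM in the controls against 230, 220 and 129 FPKM in the mutants, and it rose 3.73-fold (log2 fold change 1.87 ± 0.28 SE, limma adjusted p = 0.025). Mybpc2, the fast form, measured 7.54, 6.36 and 11.3 FPKM in the controls against 14.9, 27.5 and 12.7 FPKM in the mutants (adjusted p = 0.189, limma). Mybpc1 thus made up 84.1% to 88.6% of the pair in the controls against 88.9% to 93.9% in the mutants, a small gain of the form called slow. The related Mybph measured 0.429, 1.30 and 0.645 FPKM in the controls against 3.87, 10.4 and 2.04 FPKM in the mutants, from 1, 3 and 2 fragments and from 9, 29 and 5. Its groups did not overlap, and it did not pass (adjusted p = 0.162, limma).

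Mylk2, the kinase of skeletal muscle that phosphorylates the regulatory light chain, measured 2.79, 1.02 and 3.62 FPKM in the controls against 9.66, 9.09 and 6.74 FPKM in the mutants, from 34 fragments in the controls against 109 in mutants. All mutants lay above all controls (adjusted p = 0.0836, limma). In the M-band, which cross-links the thick filaments, the fast-fibre myomesin Myom2 rose from 3.81, 6.05 and 9.91 FPKM in controls to 28.8, 38.6 and 22.5 FPKM in the mutants (log2 fold change 2.08 ± 0.33 SE, limma adjusted p = 0.0278). Myom1, which all fibres use, measured 5.18 to 12.8 FPKM in the controls against 16.9 to 39.1 FPKM in the mutants, and Myom3, the form of slow and intermediate fibres, 5.83, 3.52 and 4.38 FPKM in the controls against 18.2, 14.9 and 7.004 FPKM in the mutants. Neither passed, although neither overlapped (adjusted p = 0.112 and 0.124, limma). Exons of Myom1 overlap the abundant Myl12a, at 115 to 170 FPKM, on the opposite strand.

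Acta1, the adult skeletal alpha-actin of the thin filament, had the highest level of the 47 genes in all 6 libraries. It measured 2453, 1396 and 3038 FPKM in the controls against 10225, 11154 and 6603 FPKM in the mutants and rose 4.06-fold (log2 fold change 2.06 ± 0.31 SE, limma adjusted p = 0.0251). Actc1, the alpha-actin of the heart and of developing skeletal muscle, measured 71.2, 58.7 and 84.9 FPKM in the controls against 108, 32.3 and 72.6 FPKM in the mutants, and mutant 2 was the lowest library while mutant 1 was the highest. Its log2 fold change was -0.15 ± 0.39 SE (limma adjusted p = 0.916). Of the 2 actins together, Actc1 made up 2.82%, 4.03% and 2.72% in the controls against 1.05%, 0.289% and 1.09% in the mutants, without overlap.

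Bases before the RefSeq starts of these actin genes, 250 for Acta1 and 238 for Actc1, are shown because the genes encode nearly the same protein and their ratio differed between groups. They lie at chr8:123894776-123895025 for Acta1 and chr2:114052888-114053125 for Actc1 (RefSeq, GRCm38.p6), both on the minus strand and printed on that strand, with capitals as before. GENCODE starts Actc1 at 114053548, so the printed Actc1 window lies inside the GENCODE gene.
Acta1: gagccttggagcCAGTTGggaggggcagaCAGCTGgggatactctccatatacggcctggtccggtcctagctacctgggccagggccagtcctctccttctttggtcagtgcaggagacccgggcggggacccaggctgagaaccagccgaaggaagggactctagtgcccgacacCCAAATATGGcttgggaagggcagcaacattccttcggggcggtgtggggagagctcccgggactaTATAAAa
Actc1: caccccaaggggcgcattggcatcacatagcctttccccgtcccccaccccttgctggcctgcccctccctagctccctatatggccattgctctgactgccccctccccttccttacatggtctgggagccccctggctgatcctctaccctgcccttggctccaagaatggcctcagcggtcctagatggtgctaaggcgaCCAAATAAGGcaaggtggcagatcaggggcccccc
Both windows held a CArG box, starting 73 bases before the RefSeq start in Acta1 and 47 in Actc1. Acta1 also held 2 E-boxes and TATAAA. Their longest run of letters in common was 9.

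Troponin makes contraction depend on calcium, with troponin C binding calcium, troponin I inhibiting and troponin T attaching the complex to tropomyosin. The fast forms were high in every library. Tnnc2 measured 1448, 835 and 2244 FPKM in the controls against 6123, 7372 and 3901 FPKM in the mutants and rose 3.84-fold (log2 fold change 2.01 ± 0.36 SE, limma adjusted p = 0.0413). Tnnt3 measured 646, 409 and 910 FPKM in the controls against 2457, 3093 and 1530 FPKM in the mutants and rose 3.60-fold (adjusted p = 0.04, limma). For Tnni2 the values were 829, 432 and 1313 FPKM in the controls against 2732, 3356 and 1728 FPKM in the mutants, with no overlap and an adjusted p of 0.0826 (limma). Exons of Tnnc2 overlap Ube2c on the opposite strand, a gene of dividing cells at 45.5 to 76.6 FPKM in the controls against 25.1 to 64.1 FPKM in the mutants, far below Tnnc2.

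The slow troponins split. Tnnt1, slow troponin T, measured 20.4, 9.41 and 41.4 FPKM in the controls against 95.99, 47.4 and 52.2 FPKM in the mutants, above all controls in each mutant (adjusted p = 0.162, limma). Tnni1, slow troponin I, which developing fast muscle also uses, measured 36.9, 16.0 and 44.1 FPKM in the controls against 13.4, 9.07 and 19.1 FPKM in the mutants, where mutant 3 lay just above control 2 (log2 fold change -1.11 ± 0.39 SE, limma adjusted p = 0.232). Tnnc1, the troponin C of slow muscle and heart, measured 11.2, 15.6 and 5.28 FPKM in the controls against 4.22, 0 and 0 FPKM in the mutants, with every mutant below every control (log2 fold change -2.64 ± 0.66 SE, limma adjusted p = 0.0971). Its fragments numbered 8, 11 and 5 in the controls against 3, 0 and 0 in mutants, a scaled ratio of 0.128 with an exact 95% interval from 0.0246 to 0.421 for counting error only. The zeros of mutants 2 and 3 allow up to 3.51 and 4.0 FPKM.

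Within troponin I, the slow Tnni1 made up 4.26%, 3.58% and 3.25% in the controls against 0.489%, 0.27% and 1.09% in the mutants, without overlap. Within troponin T, Tnnt1 made up 2.21% to 4.33% in the controls against 1.51% to 3.75% in the mutants, and these ranges overlapped. Tnnt2, the form of heart and embryonic muscle, stayed low at 3.86, 7.13 and 5.32 FPKM in the controls against 8.54, 7.08 and 6.72 FPKM in the mutants (adjusted p = 0.59, limma). The fast genes Tnni2 (142441808 to 142444410) and Tnnt3 (142498836 to 142516009) are near neighbours on chromosome 7, as are Tnni1 (135779434 to 135810989) and Tnnt2 (135836354 to 135852260) on chromosome 1, and both members of the first pair stood above all controls in every mutant while the second pair differed in sign.

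For troponin C, the windows before the RefSeq starts of the fast and the slow gene are shown because these genes had opposite signs with the widest gap of any pair tested. They lie at chr2:164779742-164779984 on the minus strand for Tnnc2 and chr14:31208062-31208311 on the plus strand for Tnnc1 (RefSeq, GRCm38.p6), with capitals as before. GENCODE starts Tnnc2 at 164779967, so most of the printed Tnnc2 window lies inside the GENCODE gene.
Tnnc2: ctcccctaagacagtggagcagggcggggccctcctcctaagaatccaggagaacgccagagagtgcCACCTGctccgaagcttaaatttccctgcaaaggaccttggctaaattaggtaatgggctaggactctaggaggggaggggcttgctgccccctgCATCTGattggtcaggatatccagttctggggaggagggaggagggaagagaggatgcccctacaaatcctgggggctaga
Tnnc1: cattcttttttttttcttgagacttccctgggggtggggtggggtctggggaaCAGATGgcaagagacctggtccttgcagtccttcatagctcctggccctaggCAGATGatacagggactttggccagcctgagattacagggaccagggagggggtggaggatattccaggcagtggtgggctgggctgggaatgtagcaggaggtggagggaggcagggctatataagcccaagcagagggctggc
Each window held 2 E-boxes and no match to the other motifs. Their longest run of letters in common was 9.

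Tropomyosin winds along the thin filament and, with troponin, covers the sites that myosin binds. Tpm2, the beta form, rose from 187, 125 and 224 FPKM in controls to 486, 583 and 344 FPKM in the mutants (log2 fold change 1.40 ± 0.27 SE, limma adjusted p = 0.0486). Tpm1, the alpha form of fast fibres and many other cells, measured 872, 562 and 1027 FPKM in the controls against 1674, 2117 and 1357 FPKM in the mutants, without overlap (adjusted p = 0.0898, limma). Tpm3, whose muscle form belongs to slow fibres and whose other forms occur in most cells, measured 140, 142 and 169 FPKM in the controls against 89.0, 88.8 and 118 FPKM in the mutants, with every mutant below every control (log2 fold change -0.61 ± 0.19 SE, limma adjusted p = 0.175). The gene tables do not separate the muscle and non-muscle transcripts of these genes, and 62.4% of the stretches of 50 bases in Tpm3 also occur in its retrotransposed copy Tpm3-rs7.

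Other thin filament genes were higher in mutants as well. The leiomodins, which nucleate and lengthen actin filaments, both rose, Lmod2 from 6.33, 6.37 and 4.75 FPKM to 17.8, 25.4 and 14.3 FPKM (limma adjusted p = 0.0347) and Lmod3 from 7.87, 4.13 and 4.62 FPKM to 34.6, 15.9 and 16.9 FPKM (limma adjusted p = 0.0467). Neb, the giant nebulin along the filament, measured 11.8 to 28.2 FPKM in the controls against 38.9 to 62.6 FPKM in the mutants without passing (adjusted p = 0.0922, limma). Klhl41, which stabilises nebulin, measured 17.7 to 31.4 and 46.4 to 74.5 FPKM (adjusted p = 0.0587, limma).

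At the Z-disc, Tcap (telethonin), which caps titin, had the largest fold of the 14 genes that rose. It measured 68.6, 43.5 and 85.5 FPKM in the controls against 650, 766 and 242 FPKM in the mutants, an 8.39-fold rise in mean (log2 fold change 2.94 ± 0.42 SE, limma adjusted p = 0.0227). Mutant 3 stood well below the other mutants and above all controls. Titin itself, Ttn, measured 7.63 to 16.2 FPKM in the controls against 24.8 to 39.0 FPKM in the mutants (adjusted p = 0.0632, limma).

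The myozenins are Z-disc proteins that bind actinin and calcineurin. Myoz1, the fast form, rose from 87.8, 67.1 and 125 FPKM to 425, 574 and 289 FPKM (log2 fold change 2.18 ± 0.30 SE, limma adjusted p = 0.0194), and Myoz2, the slow and heart form, from 17.7, 7.41 and 19.9 FPKM to 88.5, 100.5 and 39.1 FPKM (log2 fold change 2.26 ± 0.43 SE, limma adjusted p = 0.0462). Both forms thus rose, and the share of Myoz2 among the myozenins overlapped between groups. Myoz3, also a fast-fibre gene, measured 6.33, 5.27 and 8.85 FPKM in the controls against 7.21, 9.08 and 5.17 FPKM in the mutants, from 107 and 108 fragments, a scaled ratio of 1.03 with an exact 95% interval from 0.782 to 1.36.

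Actn2, the alpha-actinin of all fibres, rose from 66.9, 35.3 and 80.0 FPKM to 222, 308 and 149 FPKM (log2 fold change 1.90 ± 0.35 SE, limma adjusted p = 0.0418). Actn3, the alpha-actinin of fast fibres alone, measured 33.8, 19.9 and 36.3 FPKM in the controls against 32.3, 53.0 and 57.9 FPKM in the mutants and overlapped (adjusted p = 0.368, limma). Its share of the 2 was 33.5%, 36.0% and 31.2% in the controls against 12.7%, 14.7% and 28.0% in the mutants, without overlap, so that within alpha-actinin the fast form lost share.

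Of the remaining Z-disc genes, the LIM protein genes Ldb3 (26.8 to 77.2 and 121 to 242 FPKM), Csrp3 (28.5 to 66.6 and 87.2 to 196 FPKM) and Pdlim3 (8.69 to 24.4 and 47.8 to 62.6 FPKM) were above all controls in every mutant and did not pass (adjusted p = 0.0598, 0.106 and 0.0705, limma). The actin-binding Xirp2 measured 2.80 to 4.49 and 5.17 to 8.03 FPKM. Des, the intermediate filament that ties Z-discs together and that smooth muscle also uses, rose from 52.4, 39.5 and 66.6 FPKM to 299, 299 and 166 FPKM (log2 fold change 2.23 ± 0.28 SE, limma adjusted p = 0.0157). The ubiquitin ligases of muscle breakdown, Trim63 and Fbxo32, measured 2.902 to 8.35 and 3.31 to 3.75 FPKM in the controls against 8.65 to 25.9 and 4.61 to 14.2 FPKM in the mutants. Neither overlapped and neither passed (adjusted p = 0.276 and 0.22, limma).

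Isoforms were also set against each other within each library, as the log2 ratios of 18 pairs. Where an isoform is at 0, as Tnnc1 and Myl2 are in some mutants, the added 1 FPKM sets the ratio. In 10 pairs every mutant ratio lay below every control ratio, in 3 every mutant lay above, and 5 overlapped. Pairs that share a gene, such as Myh1 or Myh7, are not independent, and the share among pairs of other genes was not computed. A two-sided exact permutation test of 3 against 3 libraries cannot give a p below 0.1, so no pair could pass 0.05. The 13 pairs at that smallest p of 0.1 are the same pairs that did not overlap, so the test adds nothing to that count. After Benjamini-Hochberg adjustment over the 18 pairs this p is 0.138. The 10 lower pairs set 4 slow or heart isoforms and 4 developmental isoforms, with Tpm3, against adult fast or skeletal ones.

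The widest shift was Tnnc1 to Tnnc2, whose log2 ratio of FPKM + 1 averaged -7.01 ± 1.42 (SD, n = 3) in the controls against -11.66 ± 1.35 in mutants (exact permutation p = 0.1). For Tnni1 to Tnni2 the means were -4.66 ± 0.21 in the controls against -7.46 ± 0.98 in mutants (n = 3 each, exact permutation p = 0.1). Control 3, the control with little Xist, had a Tnni1 to Tnni2 log2 ratio of -4.87, and the mutants -7.56, -8.38 and -6.43. For Tnnc1 to Tnnc2, control 3 was the control nearest the mutants, at -8.48 beside -6.89 and -5.66 in controls 1 and 2. The mutants there had -10.20, -12.85 and -11.93. For Myh8 to Myh1 the log2 ratios were 0.08, 0.69 and 1.30 in the controls against -1.01, -2.49 and -0.43 in mutants, a change from more perinatal to more adult chain. For Actc1 to Acta1 they were -5.09, -4.55 and -5.14 in the controls against -6.55, -8.39 and -6.49 in mutants. In each of these pairs except Tnnc1 to Tnnc2, the ratio was lowest in mutant 2, which had the highest sum over the 47 genes, and highest in mutant 3, which had the lowest sum of the mutants. The part of the amount of muscle RNA in these ratios was not tested.

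Some ratios were higher in mutants or overlapped. The ratio of slow Mybpc1 to fast Mybpc2 was higher in every mutant (log2 means 2.49 ± 0.27 and 3.35 ± 0.46, SD, n = 3 each, exact permutation p = 0.1), as were those of Actn2 to Actn3 and of the fast chains Myh1 to Myh4. Tnnt1 to Tnnt3, Myoz2 to Myoz1, Myom3 to Myom2 and Myl3 to Myl1, each a slow form against a fast one, overlapped between groups, as did the fast chains Myh2 to Myh4. With controls 1 and 2 left out, a setting added after the data were seen, control 3 was set against the mutant mean. The sign of the difference changed in 1 of the 5 pairs that overlapped, Myh2 to Myh4. In the remaining pairs, which did not overlap, the sign could not change.

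**Figure D4:**
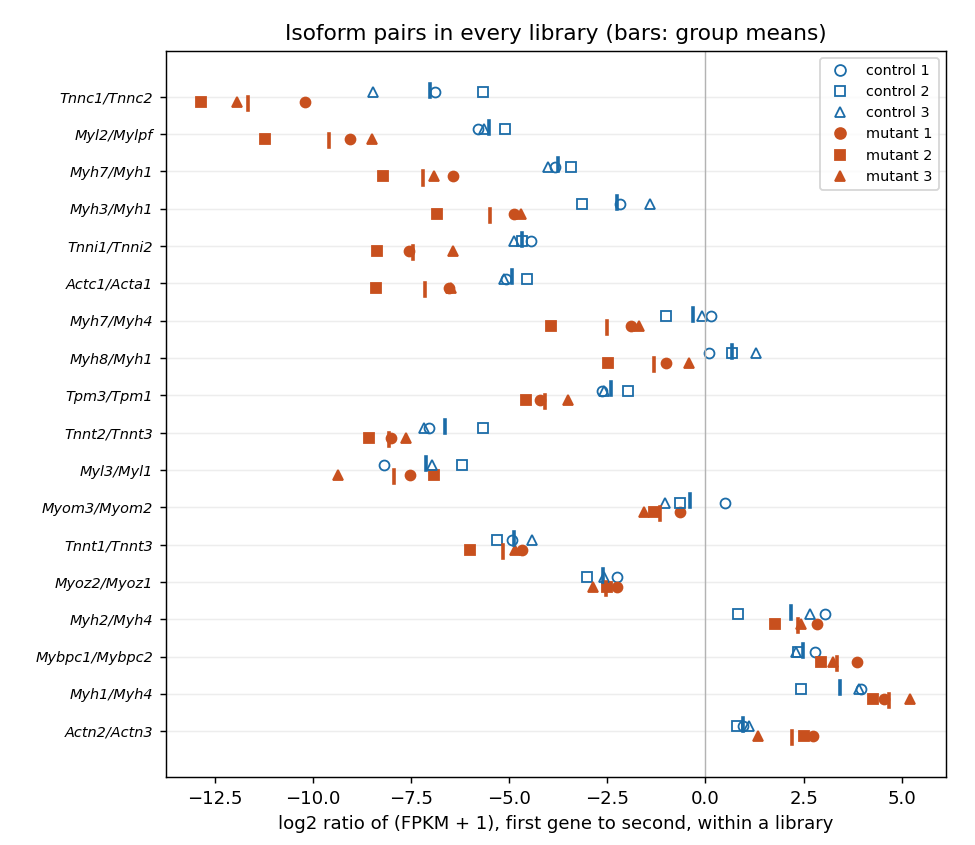
Log2 ratio of (FPKM + 1) of 2 isoforms within each library for 18 pairs, ordered by the difference between groups, with open blue symbols for controls, filled orange symbols for mutants and vertical bars for group means. The pairs at the top, led by Tnnc1/Tnnc2 and Myl2/Mylpf, lie further left in all 3 mutants, while Mybpc1/Mybpc2, Myh1/Myh4 and Actn2/Actn3 at the bottom lie further right.

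Levels of the 47 genes also went with transcript length, although FPKM is divided by length. In controls the median of mean FPKM was 65.9 over the 17 genes with transcripts under 1500 nucleotides, 22.1 over the 16 from 1500 to 4000 and 9.91 over the 14 of 4000 and over. The heavy chain Myh1, at 6081 nucleotides, stood at 43.8 FPKM in controls, beside 1646 FPKM for its light chain Myl1 at 803 nucleotides. The part of length in these levels was not tested, and comparisons between groups concern the same gene and so the same length.

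**Figure D5:**
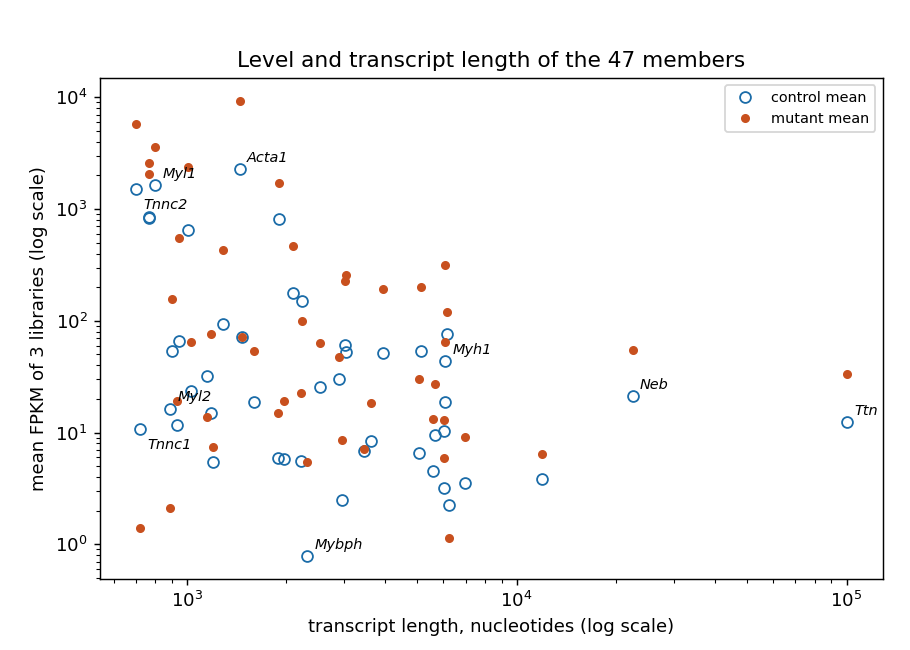
Mean FPKM over 3 libraries against transcript length in nucleotides, both on log scales, for the 47 genes, with open blue circles for controls and filled orange points for mutants; labels mark control means. The 3 most abundant genes in controls (Acta1, Myl1 and Tnnc2) have short transcripts, and the longest, Ttn and Neb, stand at 12.4 and 21.4 FPKM.

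Further sarcomere genes and other genes of muscle fibres were higher in mutants as well. Over all genes tested, 0.775% rose and 7.94% were higher at an unadjusted p below 0.05 (limma). Of 40 other sarcomere and associated genes 37 were tested, and 4 rose and 0 fell (23 higher and 0 lower at an unadjusted p below 0.05, limma). They were the Z-disc gene Myot, the filament capper Tmod4, Klhl40 and Pdlim7, at 43.8 to 64.0, 27.1 to 50.1, 2.49 to 5.26 and 40.5 to 61.1 FPKM in the controls against 147 to 322, 109 to 130, 9.98 to 21.7 and 107 to 126 FPKM in the mutants. Of 20 fibre genes outside the sarcomere 8 rose and 0 fell (17 higher and 0 lower at an unadjusted p below 0.05, limma), among them the muscle glycogen phosphorylase Pygm, at 36.9, 24.4 and 39.85 FPKM in the controls against 167, 177 and 101 FPKM in the mutants.

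Lists of related and neighbouring cell types were examined as well. Over all genes tested, 0.775% rose and 0.465% fell, and 7.94% were higher and 6.11% lower at an unadjusted p below 0.05 (limma). In 9.77% every mutant lay above every control. Of 12 genes of satellite cells and myoblasts, 10 were in the files and 7 tested, and 1 rose, the myogenic factor Myf6 (14.14 to 18.1 FPKM in controls, 32.4 to 62.3 FPKM in the mutants). At an unadjusted p below 0.05, 5 of the 7 were higher and 0 lower (limma), and in 5, among them Myod1 (2.96 to 6.985 FPKM in controls, 11.6 to 13.4 FPKM in the mutants), every mutant lay above every control. The list summed to 37.2 to 66.0 FPKM in the controls against 83.8 to 134 FPKM in the mutants. Heart markers gave 0 rises and 0 falls among 6 tested of 10 (0 in either direction at an unadjusted p below 0.05, limma), summed to 26.6 to 39.8 FPKM in the controls against 25.8 to 33.4 FPKM in the mutants, and the heart factor Nkx2-5 was at 0 in 5 of 6 libraries. Of 10 smooth muscle genes 8 were tested; Des, itself among the 47, rose, and the smooth muscle actin Acta2 fell from 120 to 128 FPKM in controls to 51.2 to 63.1 FPKM in the mutants. In the same libraries, the endothelial list summed to 102 to 165 FPKM in the controls against 281 to 328 FPKM in the mutants. Of its 10 genes 3 rose (Pecam1, Tie1 and Cldn5) and 0 fell, 7 were higher at an unadjusted p below 0.05 (limma), and in all 10 every mutant lay above every control. Of 13 cartilage genes 0 rose and 5 fell, with 1 higher and 9 lower at an unadjusted p below 0.05 (limma). Fat cell genes summed to 114 to 377 and 357 to 796 FPKM, with 0 of 8 called (2 higher at an unadjusted p below 0.05, limma). Of 9 tendon genes 0 rose and 2 fell, with 2 higher and 2 lower at an unadjusted p below 0.05 (limma). They summed to 766 to 1060 FPKM in the controls against 666 to 1360 FPKM in the mutants. Of 8 Schwann cell genes 6 were tested and 0 called, with sums of 184 to 246 FPKM in the controls against 163 to 308 FPKM in the mutants. The part of these cell types in the muscle values was not tested.

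The calls changed when single libraries were left out and when Xist entered the fit. With control 1, control 2 or mutant 1 left out, 0 of the 14 passed, and without mutant 2 only Myh1 did (adjusted p = 0.0305, limma). Without control 3, 11 of the 14 passed. Without mutant 3 all 14 did, among 22 of the 47 that rose, while 1, Myl2, fell. With Xist as a covariate 0 of the 14 passed, with log2 fold changes from 1.05 to 2.55. With replicate number as a block, which drops no library, 0 of the 14 passed either. With controls 1 and 2 left out, control 3 stood alone and the log2 fold changes were 1.04 to 2.54. Because each of these settings adds terms or drops libraries, the part of Xist in the lost calls cannot be told apart. All 14 had a positive log2 fold change in each of the 17 settings tried. In these 14 every mutant lay above every control, so leaving libraries out could not change the sign.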

How the data were processed

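RNA of 3 control and 3 mutant libraries was made into full-length cDNA with the SMART-Seq HT Kit and Nextera libraries, per the labels' protocols. The deposited tables hold FPKM for 24346 gene symbols, a unit inferred from the values and from the naming of Cufflinks 2.2.1. The build mm10, SAMtools 0.1.19, Bowtie2 2.2.3 and TopHat2 2.0.13 are also named, per the submitters' processing notes. The sources used here do not give further scaling, the gene annotation or the assignment of shared reads.

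Genes reaching 1 FPKM in 3 or more libraries entered limma 3.58.1 (R 4.3.3) as log2(FPKM + 1) (limma-trend, robust empirical Bayes, group as the only term), with Benjamini-Hochberg adjustment over 18715 genes; the procedure was tested on simulated data. Isoform pairs were compared by exact permutation (scipy 1.17.1). Fold changes on this scale understate changes of low genes. The 47 genes are named by their list, with values in every library for those called, paired or below 1 FPKM. Other genes are named from up to 4 per list with the smallest p, from exon overlap or sequence likeness to one of the 47, or for sex (Xist, Eif2s3y); the defining markers Col2a1 and Nkx2-5 were picked with their values already seen. The members, gene lists, pairs and settings were chosen with earlier results of these data known.

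Relative totals came from the commonest ratio of low values between libraries, and whole fragments from the smallest numbers, up to 60 in the highest library, matching every library to 0.06 of a fragment; 7 of the 47 genes gave such numbers. Lengths of 1173 genes with 1 transcript of at least 2000 nucleotides then gave a median total of 1.32 (in units of 1e6 fragments; quartiles 1.25 and 1.35) for control 1. Intervals and limits from 3 fragments cover counting error only. Positions, lengths and overlaps are from GENCODE M21 (GRCm38), and promoters from RefSeq.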

Additional observations from a re-analysis of the deposited data

How the results depend on the processing

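The 14 members that rose became 18 with a filter at 5 FPKM, which 43 members passed, 17 after quantile normalization and 15 with array weights. They became 13 after median scaling. With scaling to the summed FPKM outside the 47 genes and 40 other sarcomere genes, here called outside striated muscle, they became 13. They became 8 without a filter, 8 with moderation that was not robust, 9 with a pseudocount of 0.1, and 0 with the replicate block, the Xist covariate or the 2 controls with Xist left out; with single libraries left out they were 0 to 22. The 0 that fell became 1, Myl2, after quantile normalization, after the scaling outside striated muscle and with a filter at 5 FPKM, and 0 to 1 with single libraries left out. Over all genes the 232 calls became 411 after quantile normalization, 357 after the scaling outside striated muscle, 133 without a filter, 440 with a filter at 5 FPKM, 2 with the replicate block, 2 with the Xist covariate and 5 without the 2 controls with Xist, and 13 to 414 with single libraries left out. The sum used for the scaling outside striated muscle still held the 20 fibre genes outside the sarcomere. These summed to 1060 to 2610 FPKM in the controls against 5020 to 10500 FPKM in the mutants. Under that scaling 176 of all genes rose and 181 fell, beside 145 and 87. The cause of these moves was not tested. Deviations of same-numbered libraries from their group means had correlations of 0.0063, -0.016 and -0.0091. The labels link these libraries by number only, and a shared source was not tested.

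Sign changes were limited to genes that were not called and pairs that overlapped. Where the groups did not overlap, leaving libraries out could not change the sign. The log2 fold change of Myoz3 went from 0.06 to -0.037 after the scaling outside striated muscle, -0.29 with the Xist covariate and -0.30 without the 2 controls with Xist; in the latter settings the log2 fold change of Myl3 went from 0.39 to -0.41 and -0.47, and the log2 fold change of Myh8 from 0.75 to -0.011 and -0.069. With single libraries left out, the log2 fold change of Myoz3 ranged from -0.11 to 0.25, that of Myl3 from -0.18 to 1.34, the log2 fold change of Myh3 from -1.18 to 0.032 and the log2 fold change of Actc1 from -0.54 to 0.32. The difference in log2 ratio Myh2/Myh4 was 0.18, -0.30 without the 2 controls with Xist and -0.49 to 0.61 with single libraries left out. That in log2 ratio Tnnt1/Tnnt3 then ranged from -0.54 to 0.13 and that in log2 ratio Myoz2/Myoz1 from -0.12 to 0.27. At totals of about 1.31 to 1.75 (in units of 1e6 fragments), short genes under 5 FPKM rest on a few fragments each.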
